A study of Schmidtea mediterranea with 6 samples.

Results

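The contigs described here are 84 assembled planarian transcripts that encode predicted extracellular matrix, secreted or cell surface proteins and whose most enriched cell class in a published planarian single-cell atlas is neural. They were chosen from the study's table of matrisome genes and its table of genes that were screened and set aside, which together hold 766 contigs, of which 86 are assigned to neural cells. Collagens would have been left out, but none is assigned to neural cells, and 2 contigs that the study placed in its other gene lists were dropped. The remaining 84 were all among the 28742 contigs of the count table. The rule itself uses the annotation and the atlas, and no expression value of the tail libraries. Of the 84 contigs, 25 come from the matrisome table and 59 from the table of excluded genes. The excluded ones had been set aside because of a predicted transmembrane segment (45 contigs) or the lack of a signal peptide (14 contigs). The 25 matrisome contigs were 11 core glycoproteins, 9 regulators of the matrix, 3 affiliated proteins and 2 secreted factors.

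RNA came from tail fragments of *Schmidtea mediterranea* of the asexual strain CIW4, a planarian flatworm that replaces its cells from stem cells throughout life. The *hmcn-1(RNAi)* animals were fed double-stranded RNA against *hmcn-1*, and control animals were fed double-stranded RNA for *unc-22*, a *C. elegans* gene; both were mixed with liver and given in 4 feedings over 13 days. Each library held poly(A) RNA of 5 pooled tails taken within minutes of amputation, and there were 3 libraries per condition, which the labels do not tie to separate animals beyond the pools, so that p-values measure the spread between pools. The age of the animals is not given, and knockdown by feeding reaches all tissues rather than one cell type. *hmcn-1* encodes hemicentin-1, a large matrix glycoprotein of immunoglobulin and EGF repeats that planarian muscle expresses.

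The planarian nervous system consists of a pair of cephalic ganglia in the head, a pair of ventral nerve cords that run to the tail, and nerve nets beneath the epidermis and within the body wall, so that tails hold cords and nets but not the ganglia. Neurons find their targets with guidance receptors such as DCC, neogenin and UNC5, which bind netrins, and with Slits and semaphorins, and hold contacts through adhesion molecules of the immunoglobulin, cadherin, neurexin and teneurin families. Many of these are membrane proteins with the same repeats as matrix proteins, which is how a search for matrix domains meets them. The matrisome itself is the set of proteins that build the extracellular matrix, modify it or bind to it.

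The libraries held 6374450 to 11887127 reads. In the 3 *hmcn-1(RNAi)* libraries *hmcn-1* stood at 18.5, 18.5 and 16.7 CPM (reads of a contig per 1000000 of the scaled total over all contigs tested), against 205, 206 and 204 CPM in the 3 control libraries. This is a log2 fold change of -3.53 ± 0.061 (SE) with an adjusted p of 7.39e-31 (edgeR quasi-likelihood test, Benjamini-Hochberg over 15333 contigs), and 8.71% of the control level remained. Control replicate 1 stood apart: its counts differed from those of the other controls by a chi-square of 7.98 and 6.46 per degree of freedom, against 2.07 to 3.15 between all other pairs of 1 condition. Over all contigs tested, 173 passed an adjusted p of 0.05, 79 higher and 94 lower in *hmcn-1(RNAi)* tails. Without control replicates 1, 2 and 3 the number was 255, 120 and 75. Without *hmcn-1(RNAi)* replicates 1, 2 and 3 it was 88, 160 and 91.

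Whether the contigs are neural could not be read from these libraries, since each mixes all cells of the tail. The genes of the study's neural probe pool were detected in every library. Their CPM summed to 204, 202 and 206 in *hmcn-1(RNAi)* tails, against 216, 228 and 226 in control tails, so the groups did not overlap. Choline acetyltransferase (*ChAT*), which makes acetylcholine, stood at 48.5, 52.3 and 55.7 CPM in *hmcn-1(RNAi)* tails, against 60.9, 65.9 and 63.1 CPM in control tails, a log2 fold change of -0.28 ± 0.065 (SE) with an adjusted p of 0.0223. It was called lower by this edgeR test but by neither DESeq2 (adjusted p = 0.0822) nor limma-voom (adjusted p = 0.0869), and it lost the call when any of 4 libraries was left out: control replicates 2 and 3 (0.123 and 0.101) and *hmcn-1(RNAi)* replicates 1 and 2 (0.182 and 0.055). The serotonin transporter *sert* (log2 fold change 0.03 ± 0.11), dd_8060 (-0.16 ± 0.15) and ITPR3, a calcium channel of the endoplasmic reticulum (-0.09 ± 0.049), were not called. In bulk RNA, fewer cells of a type and less RNA per cell cannot be told apart.

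Of the 84 neural-assigned contigs, 75 had enough reads to be tested. One of the 75, *activin-1*, was called higher in *hmcn-1(RNAi)* tails, and 0 were called lower, where 1.13% of all contigs tested were called, 0.515% higher and 0.613% lower. Leaving out control replicate 1 gave 4 calls and leaving out *hmcn-1(RNAi)* replicate 2 gave 2, while 0 were left without control replicate 2 or without *hmcn-1(RNAi)* replicate 3. In that order, the same fits called 255, 160, 120 and 91 contigs over the whole table. At an unadjusted p under 0.05 there were 13 of the 75 contigs, 1 higher and 12 lower, where 11.0% of all contigs tested passed, 5.50% higher and 5.52% lower. The log2 fold change was negative for 54 contigs and positive for 21, with a median of -0.072 and quartiles of -0.19 and 0.01, while the median over all contigs tested was 8.85e-05. The shift was small: the estimate was under 1.2-fold in either direction for 64 of the 75 contigs (85.3%), and for 85.4% of all contigs tested. These shares were not matched for depth. The median total over the 6 libraries was 1330 counts for the 75 contigs and 887 for all contigs tested. In 13 contigs (17.3%) the 3 libraries of one condition did not overlap the 3 of the other, close to the 15.6% of all contigs tested, but 12 of the 13 lay below the controls, where 7.78% of all contigs tested did. Intervals bound what remains possible. The 95% interval lay within 1.2-fold for 31 contigs, within 1.5-fold for 56 and within 2-fold for 72.

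**Figure D1:**
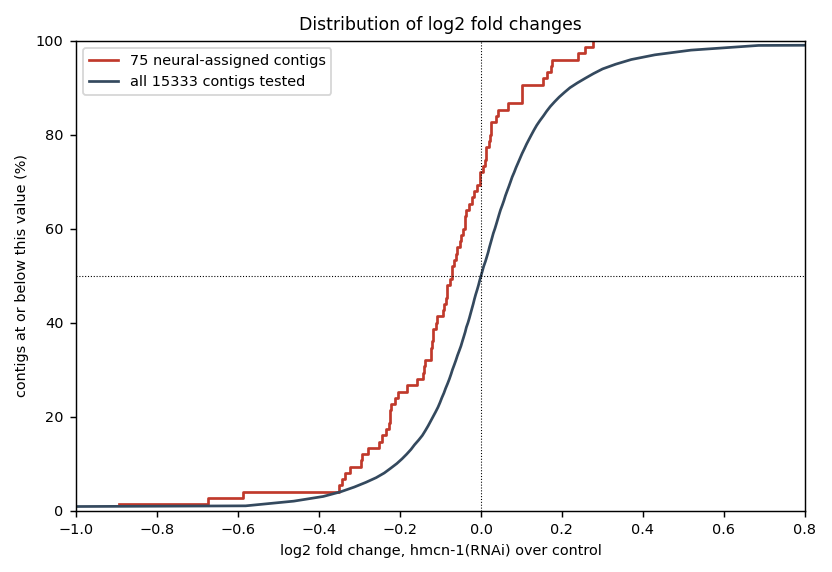
Cumulative distribution of the log2 fold change, *hmcn-1(RNAi)* over control, for the 75 neural-assigned contigs tested (red) and all 15333 contigs tested (dark). The horizontal axis is the log2 fold change, the vertical axis the percent of contigs at or below it; dotted lines mark 0 and 50%. The red line crosses 50% at -0.072 and runs left of the dark line over most of its course.

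The same shift was seen library by library. The mean log2 CPM over the 75 contigs was 4.47, 4.43 and 4.43 in the *hmcn-1(RNAi)* libraries, against 4.51, 4.54 and 4.55 in the control libraries. The groups did not overlap, and the difference of means was -0.088 where libraries of a condition varied by 0.022 (SD). Over all contigs tested the averages were 4.10 to 4.11 in *hmcn-1(RNAi)* libraries and 4.09 in each control library. The highest of the 6 libraries was a control for 54 of the 75 contigs (replicates 1, 2 and 3 for 14, 19 and 21). The lowest was an *hmcn-1(RNAi)* library for 50 (replicates 1, 2 and 3 for 13, 17 and 20). Of all contigs tested, control replicates 1, 2 and 3 were highest in 20.46%, 16.13% and 15.87%. In the same set, *hmcn-1(RNAi)* replicates 1, 2 and 3 were lowest in 16.16%, 16.42% and 13.93%. Among the controls, replicate 1 was the one nearest to the *hmcn-1(RNAi)* libraries. No p-value is attached to these averages, since contigs of one library are not replicates. The summed CPM of all 84 contigs did overlap, at 4705, 5140 and 4769 in *hmcn-1(RNAi)* tails against 5182, 5113 and 5062 in control tails. A single contig, dd_25, carried much of that spread. Without it, a choice made after its values were seen, the other 83 summed to 3720, 3706 and 3648 CPM in *hmcn-1(RNAi)* tails against 3839, 3824 and 3842 CPM in control tails.

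**Figure D2:**
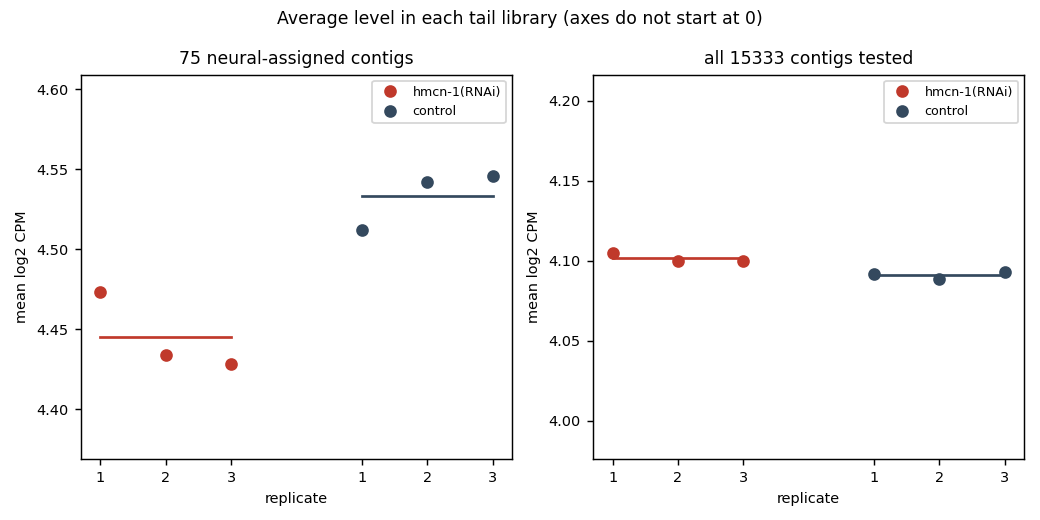
Mean log2 CPM in each library, for the 75 neural-assigned contigs tested (left) and for all 15333 contigs tested (right); the vertical axes span equal ranges and do not start at 0. Points are libraries, *hmcn-1(RNAi)* in red and control in dark, and lines are the means of 3. On the left the *hmcn-1(RNAi)* libraries lie between 4.43 and 4.47 and the controls between 4.51 and 4.55.

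Markers of other cells differed as well. The 7 canonical muscle genes summed to 8213, 8152 and 7965 CPM in *hmcn-1(RNAi)* tails against 9550, 8995 and 9295 CPM in control tails, and all 7 had a negative log2 fold change, 4 of them called. The 2 epidermal lineage genes summed to 1505 to 1557 CPM in *hmcn-1(RNAi)* tails against 1636 to 1713 CPM in control tails. Most of this sum was *prog-2*, with a mean of 1483 CPM over the libraries against 119 CPM for the other gene. *prog-2* was called lower (log2 fold change -0.14, adjusted p = 0.047, edgeR), while the other gene overlapped between conditions (-0.05). The 2 genes of the cathepsin+ probe pool summed to 74.2 to 81.5 CPM in *hmcn-1(RNAi)* tails against 60.3 to 71.5 CPM in control tails. Neither was called. Of the 2, dd_1103 lay above all controls (log2 fold change 0.19, adjusted p = 0.257, edgeR), and dd_10872 overlapped (0.41, adjusted p = 0.2345, edgeR). The sums of the 5 parenchymal genes overlapped, at 5494 to 6484 CPM against 5329 to 5606 CPM. Of these 5 genes, 3 had positive and 2 negative log2 fold changes, 1 lay below all controls and 0 were called. None of the markers on these lists was at 0 in any library. Among matrisome and excluded contigs assigned to other cells by the same rule, the median log2 fold change was -0.12 for muscle (34 tested), -0.065 for epidermis (23 tested, 16 of them negative), -0.039 for protonephridia (23 tested), -0.038 for pharynx (36 tested), 0.07 for cathepsin+ cells (65 tested) and 0.086 for intestine (24 tested). Medians of the size found in the neural-assigned contigs were thus also found in other classes. The part of such differences in the values of the neural-assigned contigs was not tested.

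The secreted signals were *activin-1* and *nlg-1*. *activin-1* (contig dd_Smed_v6_4120_0_1) encodes a ligand of the TGF-beta family, which signals through serine/threonine kinase receptors and SMAD proteins, and its closest human protein is the inhibin beta chain INHBE. It stood at 67.7, 69.9 and 75.6 CPM in *hmcn-1(RNAi)* tails, against 62.8, 56.9 and 59.4 CPM in control tails. All 3 *hmcn-1(RNAi)* libraries lay above all 3 controls. The means were 71.1 ± 4.08 and 59.7 ± 2.96 CPM (SD, n = 3 each), a ratio of 1.2, a log2 fold change of 0.26 ± 0.062 (SE, adjusted p = 0.0282, edgeR). The call was not stable. DESeq2 gave an adjusted p of 0.098 and limma-voom 0.0898, and without control replicate 2, control replicate 3 or *hmcn-1(RNAi)* replicate 3 the edgeR value was 0.154, 0.147 and 0.229, with log2 fold changes of 0.22, 0.25 and 0.21. *nlg-1*, a noggin-like gene (noggins bind BMP ligands and keep them from their receptors), rested on few reads, 24, 21 and 36 counts in *hmcn-1(RNAi)* tails against 7, 22 and 33 counts in control tails. Its log2 fold change of 0.07 had a 95% interval from -0.54 to 0.67 and a difference within it was not detectable at this depth.

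**Figure D3:**
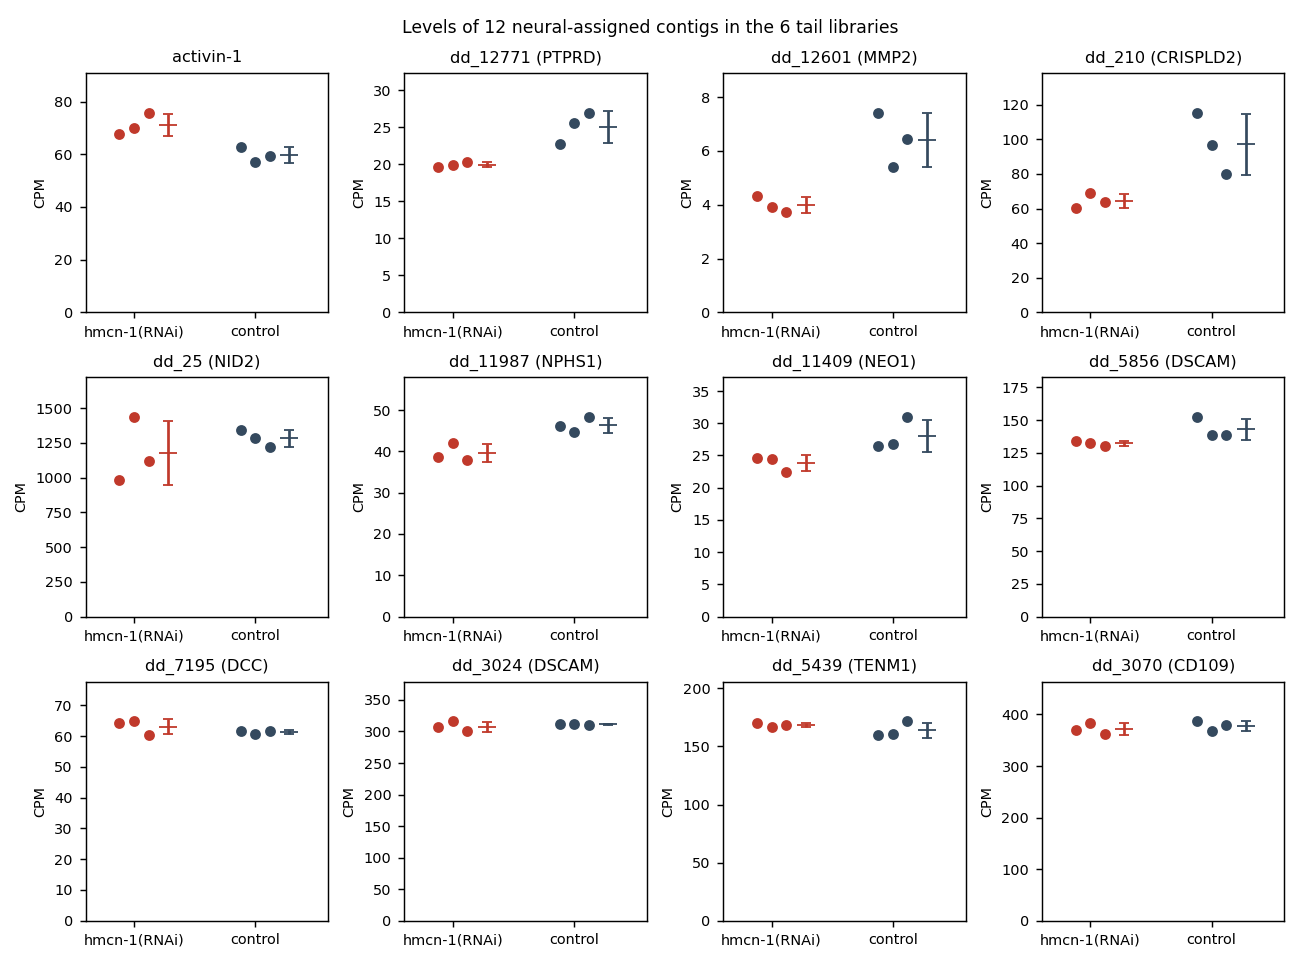
CPM of 12 contigs in the 6 libraries, with *hmcn-1(RNAi)* (red) left of control (dark) in each panel; points are libraries, the bar beside them the mean ± SD (n = 3), and every axis starts at 0. Panels are headed by the contig and the symbol of its best human match. *activin-1* lies above the controls, dd_12771, dd_12601, dd_210, dd_11987, dd_11409 and dd_5856 lie below them, and the other 5 overlap.

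The 7 axon guidance contigs showed no common direction, with 4 positive and 3 negative log2 fold changes, a median of 0.02 and 0 called. All were membrane proteins by the study's annotation. The contig most like DCC, the netrin receptor that draws axons towards the midline in other animals, stood at 64.3, 64.7 and 60.2 CPM in *hmcn-1(RNAi)* tails (dd_7195), against 61.5, 60.6 and 61.6 CPM in control tails, with a 95% interval of the log2 fold change from -0.08 to 0.16. The related receptor neogenin (NEO1, dd_11409) had 24.6, 24.5 and 22.4 CPM in *hmcn-1(RNAi)* tails, against 26.4, 26.8 and 30.9 CPM in control tails. Its libraries did not overlap, yet its log2 fold change of -0.24 ± 0.091 (SE) had an adjusted p of 0.263 (edgeR). UNC5B, the receptor of repulsion by netrin, was represented by dd_10380, with 53.1, 50.4 and 52.6 CPM in *hmcn-1(RNAi)* tails against 53.6, 57.6 and 57.97 CPM in control tails (log2 fold change -0.12, adjusted p = 0.512, edgeR). The semaphorin-like contig dd_2090 (SEMA4D, log2 fold change -0.07), the co-receptor-like dd_3934 (CDON, 0.02), and the 2 contigs closest to the guidance cue SLIT2, dd_11299 (0.02) and dd_9153 (0.16), overlapped between conditions. For CDON, at 233, 250 and 238.4 CPM in *hmcn-1(RNAi)* tails and 239, 234 and 237 CPM in control tails, the interval from -0.07 to 0.11 excludes a change of 1.2-fold.

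Cell adhesion proteins with immunoglobulin repeats, 11 contigs, had 9 negative and 2 positive log2 fold changes, a median of -0.11, and 0 called. The lowest unadjusted p was that of dd_11987, one of 3 contigs closest to nephrin (NPHS1), an adhesion protein of the kidney filter in mammals. It stood at 38.7, 42.0 and 37.8 CPM in *hmcn-1(RNAi)* tails, against 46.1, 44.7 and 48.3 CPM in control tails, a log2 fold change of -0.23 ± 0.071 (SE, adjusted p = 0.116, edgeR). The other nephrin-like contigs overlapped between conditions, dd_16056 at -0.30 ± 0.16 and dd_10689 at -0.03 ± 0.10. Of the 2 contigs closest to DSCAM, which lets neurites of one neuron recognise each other in flies, dd_5856 had 134, 132 and 130 CPM in *hmcn-1(RNAi)* tails, against 152, 138 and 138 CPM in control tails. It lay below all controls with a log2 fold change of only -0.11 ± 0.050 (SE, adjusted p = 0.393, edgeR). The second, dd_3024, was level, at 307, 316 and 300 CPM in *hmcn-1(RNAi)* tails and 312, 311 and 310 CPM in control tails, with a 95% interval from -0.10 to 0.07. The remaining contigs, closest to IGSF9 (dd_17743, log2 fold change -0.21), IGSF10 (dd_8246, -0.12), the L1 family protein CHL1 (dd_4031, -0.04) and the nephrin partner KIRREL1 (dd_11554, 0.02), overlapped.

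Hemicentin-1 was also the best human match of 3 neural-assigned contigs, none of which is the targeted gene. The EGF-repeat contig dd_3783 had 134, 136 and 139 CPM in *hmcn-1(RNAi)* tails, against 138, 143 and 143 CPM in control tails, a log2 fold change of -0.05 with a 95% interval from -0.15 to 0.04. The immunoglobulin contigs dd_14689 (log2 fold change -0.28 ± 0.24) and dd_30208 (0.24 ± 0.38) had 181 and 67 counts over the 6 libraries and were not called. While *hmcn-1* itself was at 8.71% of its control level, none of the 3 had an interval that reached a 2-fold decrease.

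All 5 receptor phosphatases and kinases had negative log2 fold changes, with a median of -0.09 and 0 called. The contig dd_12771 is closest to PTPRD, a receptor tyrosine phosphatase that organises synapses in mammals. It stood at 19.7, 19.9 and 20.3 CPM in *hmcn-1(RNAi)* tails, against 22.7, 25.7 and 26.9 CPM in control tails, a mean of 19.9 ± 0.33 against 25.1 ± 2.16 CPM (SD, n = 3 each). The libraries did not overlap, and the log2 fold change of -0.34 ± 0.095 (SE) had the smallest adjusted p among the contigs that were not called, 0.0778 (edgeR). Leaving out control replicate 1 brought it to 0.0272, and leaving out any other library kept it between 0.163 and 0.335. A second PTPRD-like contig, dd_16827, was low, at 2.57, 3.91 and 3.04 CPM in *hmcn-1(RNAi)* tails and 3.38, 3.87 and 3.64 CPM in control tails. The contigs closest to PTPRQ (dd_8686, log2 fold change -0.08), to the Notch ligand JAG1 (dd_11876, -0.09) and to ROR1, a Wnt receptor kinase (dd_7911, -0.06), overlapped between conditions.

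**Figure D4:**
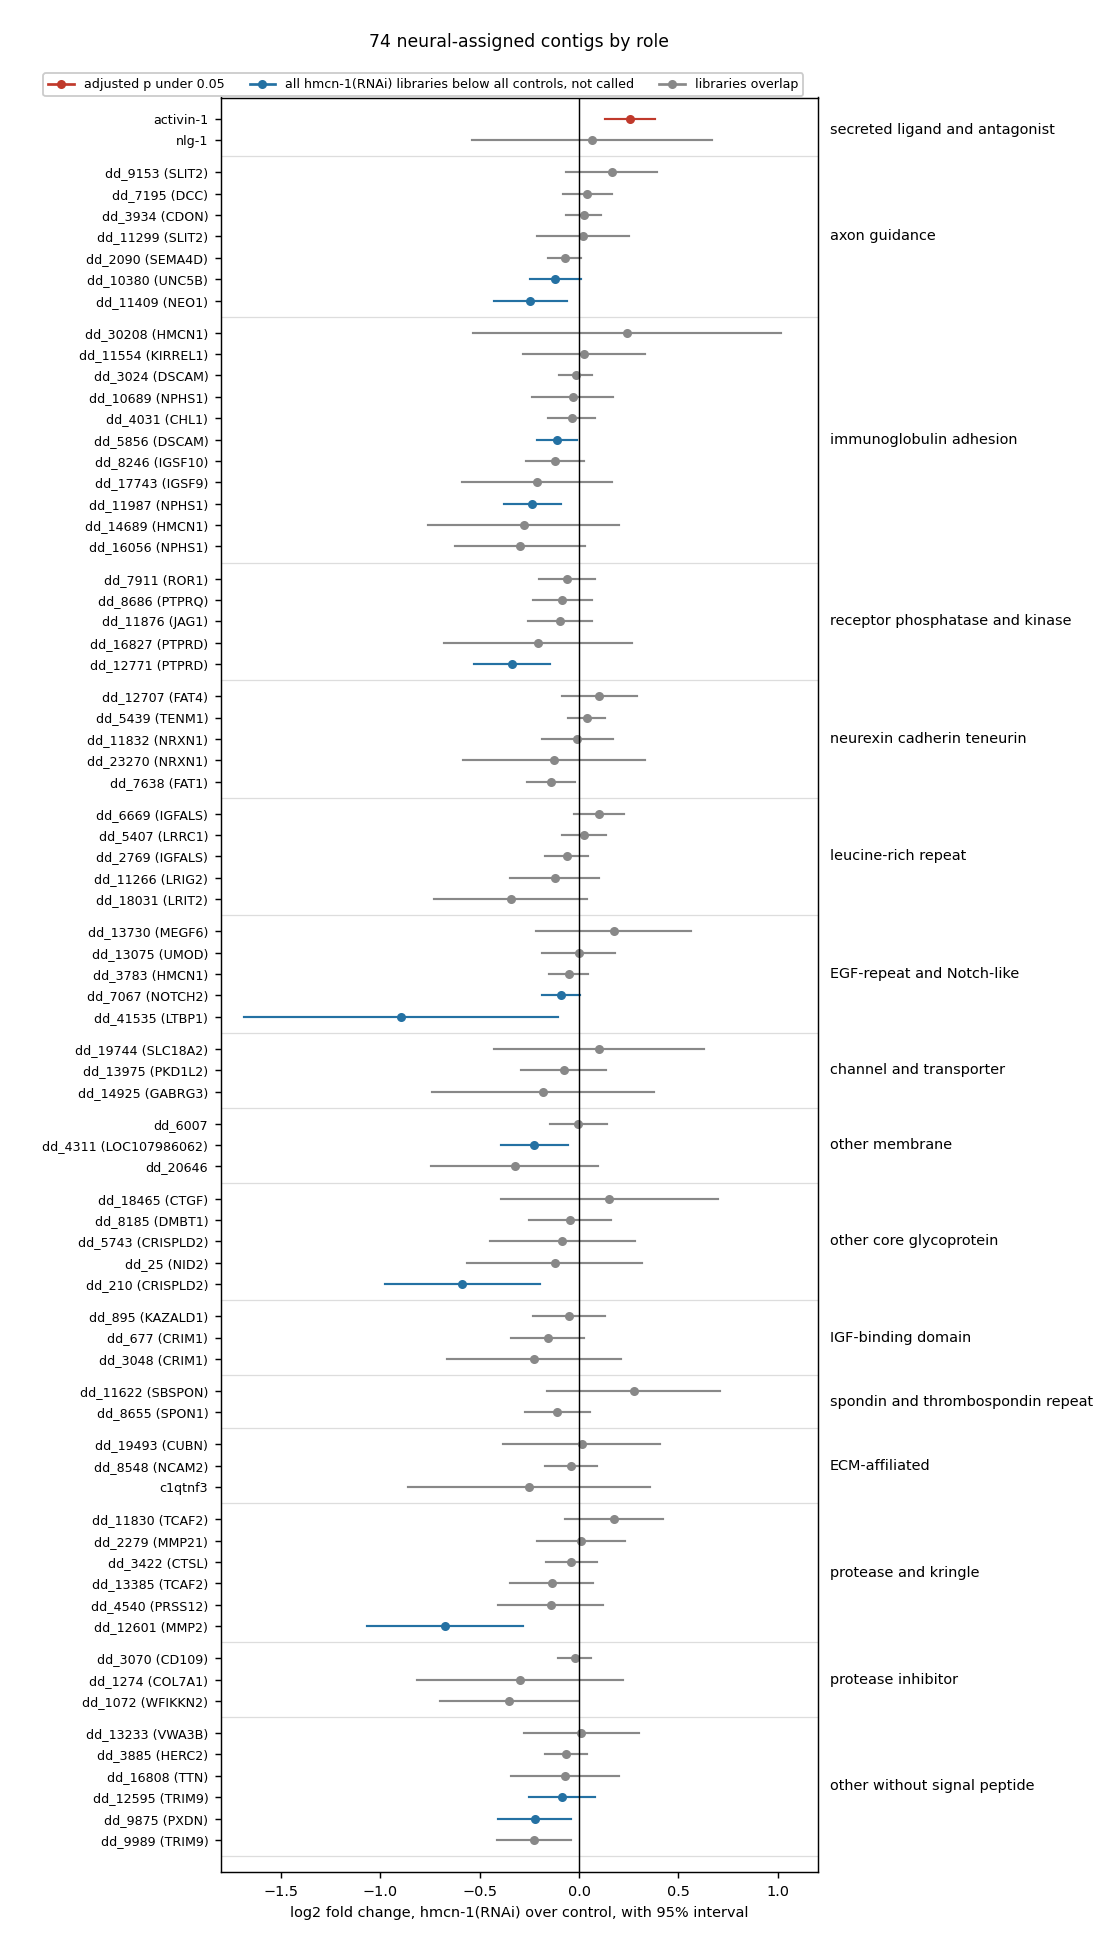
Log2 fold change, *hmcn-1(RNAi)* over control, with its 95% interval for 74 of the 75 neural-assigned contigs tested, grouped by role and labelled by contig and best human match. Red marks the contig called higher, *activin-1* (0.26), blue the 12 contigs whose *hmcn-1(RNAi)* libraries all lie below all controls without a call, and grey the contigs whose libraries overlap. Most points lie left of 0, none of those on the left being called.

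Synaptic and large adhesion proteins outside the immunoglobulin family varied little. The teneurin-like contig dd_5439 (TENM1; teneurins match synaptic partners in flies) had 170, 167 and 168 CPM in *hmcn-1(RNAi)* tails, against 160, 161 and 172 CPM in control tails, with a 95% interval of the log2 fold change from -0.06 to 0.13. Neurexin-like contigs were dd_11832, at 25.6, 26.9 and 26.6 CPM in *hmcn-1(RNAi)* tails and 24.5, 27.99 and 26.8 CPM in control tails, and dd_23270, whose controls spread over 9.34, 4.10 and 7.76 CPM against 6.55, 6.04 and 6.34 CPM in *hmcn-1(RNAi)* tails. The giant cadherin FAT1, which in flies and mammals acts in planar polarity and adhesion, was matched by dd_7638. It stood at 77.9, 87.5 and 76.0 CPM in *hmcn-1(RNAi)* tails, against 86.8, 90.9 and 87.8 CPM in control tails (log2 fold change -0.14 ± 0.059, adjusted p = 0.337, edgeR), and 1 library overlapped the controls. Its relative dd_12707 (FAT4) had a log2 fold change of 0.10.

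Channels, receptors of transmitters and transporters were 4 contigs. The vesicular monoamine transporter-like dd_19744 (SLC18A2), which loads serotonin and dopamine into vesicles, had 3.04, 2.49 and 2.88 CPM in *hmcn-1(RNAi)* tails, against 3.38, 2.58 and 2.06 CPM in control tails. The GABA receptor-like dd_14925 (GABRG3) and the polycystin-like dd_13975 (PKD1L2) overlapped between conditions, with log2 fold changes of -0.18 ± 0.27 and -0.08 ± 0.10. The acetylcholine receptor-like dd_24374 (CHRNB4), with 38 counts over 6 libraries, was not tested.

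Among core glycoproteins, the structural proteins of the matrix, 9 of 11 were tested, with 7 negative and 2 positive log2 fold changes and 0 called. The contig dd_210 (dd_Smed_v6_210_1_1, closest to CRISPLD2, a secreted protein with CAP and LCCL domains) had a large difference. It stood at 60.5, 68.98 and 63.7 CPM in *hmcn-1(RNAi)* tails, against 115, 96.5 and 80.0 CPM in control tails. Every *hmcn-1(RNAi)* library lay below every control, and the controls spread more widely, with means of 64.4 ± 4.30 against 97.2 ± 17.6 CPM (SD, n = 3 each). The log2 fold change was -0.59 ± 0.15 (SE) with an adjusted p of 0.269 in the robust edgeR fit, which gives contigs of unusual spread fewer degrees of freedom. The call depended on the tool: DESeq2 gave an adjusted p of 4.21e-06 and limma-voom 0.0199. In the edgeR fit it was 4.76e-04 without control replicate 1 and 4.71e-06 without control replicate 3, while leaving out any other library kept it at 0.427 or above. A second CRISPLD2-like contig, dd_5743, overlapped (log2 fold change -0.08 ± 0.18).

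The contig dd_25 had NID2, a nidogen, as its closest human protein, with TY as its annotated domain. The study listed it by its contig number with NID2 in parentheses, and described a single clear nidogen homolog in planarians. Whether dd_25 is that homolog was not tested. It stood at 984, 1435 and 1120 CPM in *hmcn-1(RNAi)* tails, against 1344, 1289 and 1221 CPM in control tails. The *hmcn-1(RNAi)* libraries spanned the controls, since replicate 2 was above all of them and the others below. The log2 fold change was -0.12 with a 95% interval from -0.56 to 0.32. Without *hmcn-1(RNAi)* replicate 2 it was -0.29 with an adjusted p of 0.0039 (edgeR), and without *hmcn-1(RNAi)* replicate 1 it was -0.0078. The other core glycoproteins overlapped between conditions. They were the zona pellucida domain contig dd_8185 (DMBT1, log2 fold change -0.04), the CCN family contig dd_18465 (CTGF, 0.15), the spondin-like dd_8655 (SPON1, -0.11) and dd_11622 (SBSPON, 0.28), and the 2 contigs with an insulin-like growth factor binding domain closest to CRIM1, dd_677 (-0.16) and dd_3048 (-0.23). The other core glycoproteins of the table, dd_10389 (IGFBP2) with 51 counts and dd_12352 (ASPN) with 46, were not tested.

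Regulators of the matrix, which cut, protect or modify it, were 9 contigs, 8 of them tested, with 7 negative log2 fold changes, 1 positive and 0 called. The protease inhibitor contig dd_1072, closest to WFIKKN2, which in mammals binds myostatin and related ligands, had 6.55, 6.99 and 4.99 CPM in *hmcn-1(RNAi)* tails, against 8.54, 8.20 and 6.67 CPM in control tails (log2 fold change -0.35 ± 0.17, adjusted p = 0.444, edgeR). The alpha-2-macroglobulin family contig dd_3070 (CD109) was level, at 369, 384 and 362 CPM in *hmcn-1(RNAi)* tails and 386, 367 and 379 CPM in control tails, with a 95% interval from -0.10 to 0.06. The cathepsin L-like protease dd_3422 (CTSL, -0.04), the neurotrypsin-like protease dd_4540 (PRSS12, -0.14), the KAZALD1-like dd_895 (-0.05), dd_1274 (COL7A1, -0.29) and the kringle domain contigs dd_13385 (-0.14) and dd_11830 (0.18), both closest to TCAF2, overlapped between conditions. The kringle contig dd_23420 (PLG), with 45 counts, was not tested. Of the 3 affiliated proteins, none differed beyond the spread: dd_8548 (NCAM2) had a log2 fold change of -0.04, the CUB domain contig dd_19493 (CUBN) 0.01, and *c1qtnf3*, of the C1q and TNF-related family, -0.25 ± 0.30 on 105 counts over 6 libraries.

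A protease outside the matrisome table had one of the larger differences. The contig dd_12601 is closest to MMP2, a matrix metalloprotease that cuts collagen IV and gelatin, but was set aside for a predicted transmembrane segment. It stood at 4.33, 3.91 and 3.72 CPM in *hmcn-1(RNAi)* tails, against 7.41, 5.39 and 6.43 CPM in control tails. The libraries did not overlap, and the log2 fold change of -0.67 ± 0.19 (SE) had an adjusted p of 0.083 (edgeR) and, with 33 to 53 counts a library, a 95% interval from -1.07 to -0.28. The largest decrease was that of dd_41535 (LTBP1; such proteins hold latent TGF-beta in the matrix in mammals), at 6, 9 and 9 counts in *hmcn-1(RNAi)* tails against 8, 14 and 14 counts in control tails. In CPM these were 0.702, 1.07 and 0.761 against 1.29, 1.64 and 1.70, which did not overlap, but the log2 fold change of -0.90 ± 0.39 had an adjusted p of 0.368 (edgeR).

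The other contigs whose *hmcn-1(RNAi)* libraries all lay below the controls were named after their values were seen. The Notch receptor-like dd_7067 (NOTCH2) had 141, 137 and 140 CPM in *hmcn-1(RNAi)* tails, against 147, 150 and 148 CPM in control tails, a log2 fold change of -0.09 ± 0.047. The peroxidasin-like dd_9875 (PXDN, -0.22 ± 0.090), dd_4311 (-0.22 ± 0.083) and the TRIM9-like ubiquitin ligase contig dd_12595 (-0.09 ± 0.082) were the rest, with adjusted p between 0.253 and 0.766 (edgeR). A second TRIM9-like contig, dd_9989, had -0.23 ± 0.091 and overlapped. TRIM9 binds the netrin receptor DCC in mammals.

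The remaining contigs overlapped between conditions and none was called. They comprised 5 leucine-rich repeat proteins with log2 fold changes from -0.34 to 0.10, the EGF-repeat contigs dd_13075 (UMOD, -0.001) and dd_13730 (MEGF6, 0.17), 2 membrane contigs without a human match (-0.32 and -0.003), the metalloprotease-like dd_2279 (MMP21, 0.01) and 3 further contigs without a signal peptide (-0.07 to 0.01). The 9 contigs that were not tested had 9 to 52 counts over the 6 libraries, and a difference could not be read from them. They were the 4 named above and the 4 closest to MEGF6 (dd_32414), CR2 (dd_41498), ANXA4 (dd_22852) and WFIKKN2 (dd_14220), together with dd_25334, which has no human match.

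By atlas cluster, the single-cell group in which a contig was most enriched, all 7 contigs tested of cluster 8 had negative log2 fold changes (median -0.23), as did 6 of 7 in cluster 36 (-0.18), 6 of 7 in cluster 9 (-0.12) and 10 of 13 in cluster 32 (-0.12), where *activin-1* was among the 3 positive ones. In cluster 20 there were 5 positive and 2 negative (0.01), and in cluster 21 there were 5 of each (-0.01). Cluster 33 had 7 negative and 4 positive (-0.02). Clusters 18 and 23 each had 4 negative and 1 positive (-0.07 and -0.02), and cluster 1 had 3 negative (-0.09). No test was made between clusters, and apart from *activin-1* none of their contigs was called. Contigs from the matrisome table (22 tested) had a median log2 fold change of -0.067, and those set aside (53 tested) one of -0.072. The closest human protein was shared by 2 or 3 contigs in 13 cases, 28 contigs in all, and reads of near-identical contigs may have been split between them by the mapping, which was not tested.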

How the data were processed

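Poly(A) RNA of 6 tail pools was sequenced, 3 *hmcn-1(RNAi)* and 3 control, with a stranded kit. The authors mapped the reads to the dd_Smed_v6 transcriptome with Bowtie 1.2.2 and its -best option and summed those of isotigs of one contig with SAMtools 1.9 (submitters' processing notes: cutadapt 1.8, CASAVA 1.9). They deposited raw counts per contig, which are used here. The use of strand in counting is not stated in the labels or methods read. A deposited table of the authors' own comparison holds fold changes and p-values and was not used. The deposited counts carry no genome coordinates, and dd_ followed by a number stands for the contig of that number in dd_Smed_v6.

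Human best matches, categories, domains and atlas clusters come from the study's tables of matrisome and excluded genes; 83 of the 84 contigs were linked there to the dd_Smed_v6 contig of the same number. Sequences were not analysed here, and 1 contig counted in the totals is not reported here by itself.

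Counts were analysed in R 4.3.3 with edgeR 4.0.16: low contigs were removed with filterByExpr (minimum count 10), libraries were scaled by TMM (factors 0.977 to 1.02), condition was the single term of a robust quasi-likelihood model, and p-values were adjusted by Benjamini-Hochberg over 15333 contigs. A contig with an adjusted p under 0.05 was called. The SE is the size of the log2 fold change divided by the square root of F. The biological coefficient of variation was 6.28%. CPM are not corrected for contig length, so levels of different contigs are not compared. Library averages are means of log2 CPM (prior count 1). The fit was also run on simulated counts with known changes and tested on those.

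The contigs, role groups and lists were chosen with earlier results of these data known. Named are *hmcn-1*, the neural probe pool, any contig called, the contigs named in the matrisome table, 5 role groups (guidance, immunoglobulin adhesion, receptor phosphatases and kinases, neurexin, cadherin and teneurin, channels and transporters), and the 5 largest changes in each direction among contigs whose libraries do not overlap (only 1 such increase).

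Alternatives were RLE scaling, no filter or a stricter one (100 counts in 3 libraries), limma-voom (limma 3.58.1), DESeq2 1.42.0 in its default form or with independent filtering off, the replicate number as a block, each library left out, an adjusted p under 0.10, a test against 1.2-fold (glmTreat) and, for averages, a prior count of 5. Tables and plots used Python 3.11.15, pandas 2.3.3 and matplotlib 3.10.9.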

Additional observations from a re-analysis of the deposited data

How the results depend on the processing

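The number of contigs called was 173 by edgeR and differed by over 1.5 times without a filter (339), with DESeq2 (111) and DESeq2 without independent filtering (66), limma-voom (73), an adjusted p under 0.10 (278) and a test against 1.2-fold (8). Of the neural-assigned contigs 1 was called, against 2 without a filter, 3 at an adjusted p under 0.10, and 0 against 1.2-fold. The single contig called by DESeq2 with and without independent filtering and by limma-voom was dd_210, lower, and not *activin-1*. Without the filter both were called. The cause of these differences was not tested. Of the neural probe pool, 1 gene was called by edgeR, and 0 by DESeq2, DESeq2 without independent filtering, limma-voom or against 1.2-fold. Leaving out 1 library gave 75 to 255 contigs called, 0 to 4 neural-assigned contigs and 0 to 1 probe pool genes. The 4 came without control replicate 1: *activin-1*, dd_210, dd_12771 and dd_9989, the last named after its values were seen. The labels do not say whether the replicate numbers pair the samples. Deviations of same-numbered libraries correlated at 0.03, 0.08 and 0.01, and those of differently numbered ones at -0.06 to 0.04. With 3 libraries per condition, correlations of this size cannot decide it. With the replicate block 292 contigs were called in edgeR. Of the neural-assigned contigs 2 were called in that fit, *activin-1* and dd_12601 (adjusted p = 0.048, edgeR).

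The median log2 fold change of the neural-assigned contigs stayed between -0.09 and -0.06 under every alternative run. The difference between library averages was -0.088 and was -0.064 when contigs under 100 counts in 3 libraries were left out. In 24 of the 75 contigs the sign changed under some alternative, and none of them was called. In the main fit their log2 fold changes were at most 0.12 in size. With 1 library left out some moved further, such as *nlg-1* (-0.22 to 0.52) and dd_23270 (-0.42 to 0.10).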
